A study of Mus musculus with 6 samples.

Results

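The uteri of immature mice given fluorene-9-bisphenol (BHPF) were compared with those of control mice, after probes that belong to liver RNA had been left out. BHPF is a bisphenol used in place of bisphenol A in plastics. Female CD-1 mice received BHPF at 50 mg per kg body weight, or the vehicle peanut oil, once a day into the stomach for 3 days. The labels give their age as 24 days, without saying whether this was at the first dose or when tissues were taken. Total RNA of uterus, ovary and liver was pooled from 3 mice per group, and each of the 6 pools was read in the Cy3 channel of its own one-colour Agilent array. The comparison thus rests on 2 of the 6 samples, control uterus and BHPF uterus, with the liver and ovary arrays as references. No spread between pools was measured, so every difference below is a description without a test, and the number of arrays limits its precision.

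The members were chosen by measured values, and those values are not findings. Of the 55681 probes of the array, 38803 exceeded background on the control uterus array, the BHPF uterus array or both. Probes whose control liver level exceeded their control uterus level by 8-fold or more were left out, as were 21 probes that had no usable spot on the control liver array. This removed 1118 probes and retained 37685, of which 34639 were well above background on both uterus arrays. A level is the log2 of the probe's intensity minus the 75th percentile of its array, and a log2 ratio is the BHPF level minus the control level. A probe measured on 1 uterus array only was set against the dimmest intensity that counted as well above background on the other array, and its fold is then a bound. A probe or gene is called higher or lower where its levels differ 2-fold or more, and called changed in either case. Among repeated spots of 1 probe the noise amounted to an SD of 0.14 for a log2 ratio, which does not include variation between animals.

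The uterus arrays were well above background for 68.9% of probes with peanut oil and 64.7% with BHPF, within the range of 61.3 to 74.5% over all 6 arrays. All arrays were read from 1 slide, where control and BHPF arrays held separate positions, so position and treatment cannot be told apart. In a second deposited table the columns named for the uterus groups were exchanged relative to the scanner files. For 99.1% of 38802 spots its control uterus column matched the BHPF scanner file within 0.001 on the log2 scale. All directions below follow the scanner files and would turn if the labels of those files were the wrong ones.

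The uterus consists of a luminal and glandular epithelium, a stroma and a muscular wall, the myometrium. Oestrogen acts there through nuclear oestrogen receptors. It induces secretory and cornification genes in the epithelium, draws granulocytes into the stroma and raises oxytocin receptor in the myometrium. Small proline-rich (Sprr) proteins, which crosslink in the envelope of squamous epithelia, are among the genes most strongly induced by oestrogen in the rodent uterus.

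Most retained probes differed little between the uterus arrays. Their median log2 ratio was 0.006, and 94.0% of them lay within 1.5-fold. With BHPF, 394 probes were called higher, 1.05% of those retained, and 279 were called lower, 0.74%. Of the higher probes 217 passed 2-fold by their bound, and of the lower ones 122. The higher probes made up 58.5% of those changed, a share that depended on the processing. It was 43.4% with measured values in place of bounds, 47.2% when genes were counted, and 51.2% with either the 50th percentile or quantile normalization as the scaling. Changed probes were more frequent at low levels. Where the brighter of both uterus levels was from -4 to -2, 4.11% of probes were changed, against 0.14% where it was above 2. The probes with a symbol gave 15475 genes, for which probes of 1 gene were averaged. Of these, 108 genes (0.698%) were called higher and 121 (0.782%) lower, and 48.8% of all genes were above 0.

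**Figure D1:**
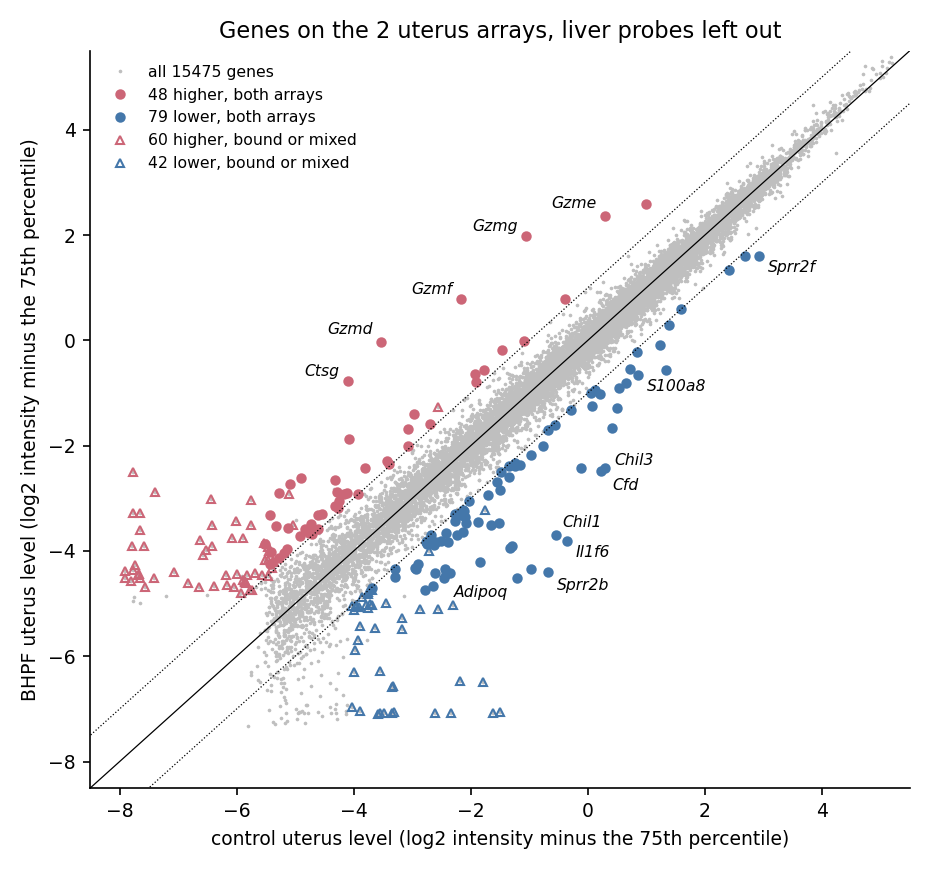
Level of each gene on the control uterus array (x axis) and the BHPF uterus array (y axis), both as log2 intensity minus the 75th percentile of the array, after removal of liver probes. Grey points are all 15475 genes, filled points those changed at least 2-fold and well above background on both arrays (48 higher, 79 lower), triangles those with a bound or with probes of both kinds, drawn at their own levels, and dotted lines mark 2-fold.

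The liver probes that were left out behaved differently. Of these 1118 probes, 335 were called higher in the BHPF uterus and 21 lower. Their median log2 ratio was 0.32. Their ratios are given by the excess of the control liver over the control uterus level. The control uterus level enters both the excess and the ratio, so a low reading there raises both. Among the 382 probes more than 6 log2 units brighter on the liver array, 310 were called higher in the uterus and the median was 2.04. It was 0.20 for an excess of 4 to 6, and 0.03 for an excess of 3 to 4. Grouped instead by the excess over the control ovary level, which the ratio does not contain, the probes with an excess over 6 had a median uterus ratio of 1.36, and 275 of 461 were called higher. On the ovary arrays the 3 sets grouped by the uterus level had medians of 0.03, -0.04 and -0.04. Over the 382 probes, the excess on the BHPF uterus array corresponded to a median of 0.884% of the control liver intensity, with quartiles of 0.501 and 1.99%. Just below the 8-fold limit the retained probes of *Cfhr2*, *Pter*, *Ctse* and *Rnf13* had log2 ratios from 0.01 to 0.41. Just above it the probes of *Ube4b*, *Plk5*, *Pex11g*, *Pilra* and 1190005I06Rik, which were left out, ranged from -0.81 to 0.60. Of 27 listed genes for proteins secreted by the liver, 26 were removed, and *Rbp4*, the plasma retinol carrier, remained with a ratio of 0.40. The rule also removed 8 of 21 neutrophil genes and 5 of 20 macrophage genes, which are brighter in liver. Likewise 10 of 25 genes of cholesterol synthesis and 6 of 28 adipocyte genes were removed.

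**Figure D2:**
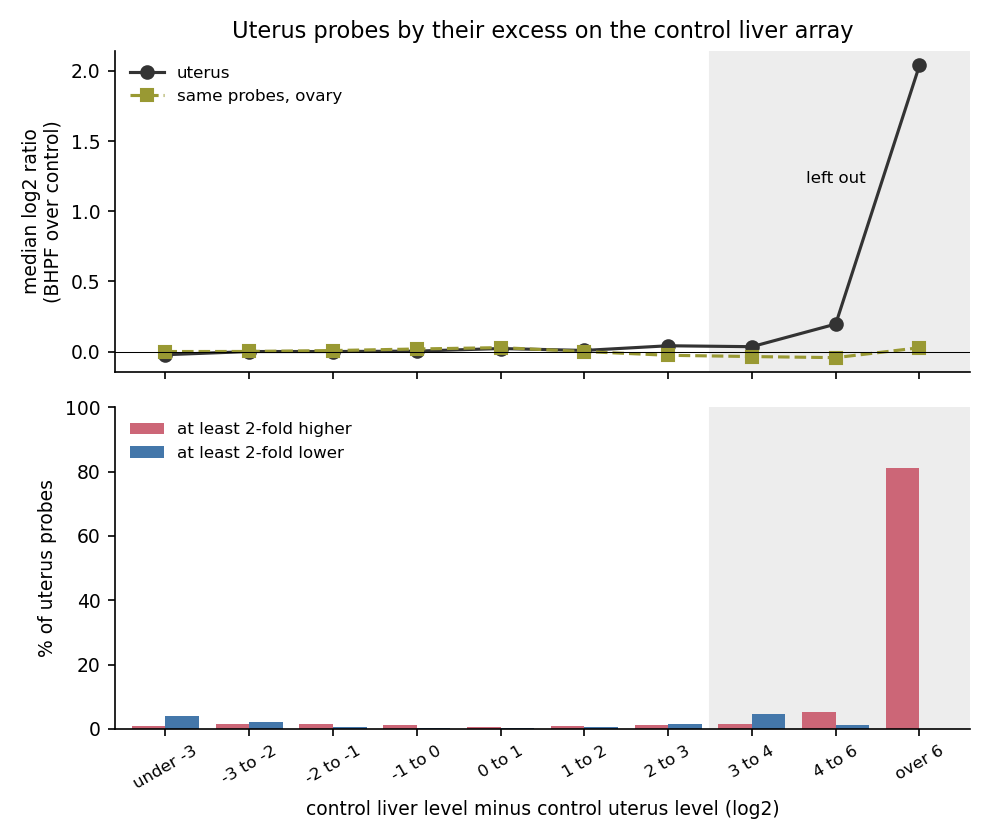
Uterus probes grouped by control liver level minus control uterus level (x axis, log2). The upper panel shows the median log2 ratio in the uterus and, for the same probes, in the ovary, and the lower panel the percent of uterus probes at least 2-fold higher or lower. The shaded groups were left out, and the uterus median departs from 0 there, up to 2.04 in the last group.

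Among the listed oestrogen-induced genes, several Sprr genes were lower with BHPF and the others were not called. Of 36 listed genes on the array, 34 were measured. Of these, 26 were below 0, 6 were called lower, against 0.782% of all genes, and none was called higher. The list's median was -0.29, beside 0.00 over all genes. In pooled tissue, fewer cells of a type and less RNA per cell cannot be told apart. All 6 genes lower by 2-fold were Sprr genes. *Sprr2b* had a level of -0.68 in the control uterus and -4.40 with BHPF, a 13.2-fold difference. *Sprr2f* went from 2.93 to 1.60, and *Sprr2g* from 1.38 to 0.29. *Sprr2d* was 4.17-fold lower and *Sprr1a* 3.44-fold lower. Each of these probes was well above background on both uterus arrays. *Sprr2e* was lower by less than 2-fold, at a log2 ratio of -0.42. The probes for *Sprr2a2* disagreed. One went from 1.60 to -0.79, and another, which was also bright on the liver and ovary arrays, from 3.76 to 3.98. Of 16 Sprr probes the other 8 were not well above background in either uterus. The Sprr2 genes are close in sequence, so a probe may also bind transcripts of its neighbours.

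The sequences before the start of 3 of these genes are shown because all 3 genes were called lower and lie in 1 gene cluster. They are the 250 bases before the RefSeq start on the plus strand of GRCm38.p6, at chr3:92316455-92316704 for *Sprr2b*, chr3:92338890-92339139 for *Sprr2d* and chr3:92364937-92365186 for *Sprr2f*. Capitals mark the AP-1 site TGANTCA, searched on both strands.
Sprr2b: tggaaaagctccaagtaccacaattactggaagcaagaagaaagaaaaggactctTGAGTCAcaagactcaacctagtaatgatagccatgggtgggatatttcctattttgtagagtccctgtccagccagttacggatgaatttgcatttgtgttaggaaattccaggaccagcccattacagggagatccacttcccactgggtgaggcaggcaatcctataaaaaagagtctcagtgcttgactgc
Sprr2d: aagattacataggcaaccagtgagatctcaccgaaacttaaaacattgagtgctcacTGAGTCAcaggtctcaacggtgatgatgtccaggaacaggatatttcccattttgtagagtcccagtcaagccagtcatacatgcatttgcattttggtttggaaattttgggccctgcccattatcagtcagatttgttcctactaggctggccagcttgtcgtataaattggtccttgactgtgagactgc
Sprr2f: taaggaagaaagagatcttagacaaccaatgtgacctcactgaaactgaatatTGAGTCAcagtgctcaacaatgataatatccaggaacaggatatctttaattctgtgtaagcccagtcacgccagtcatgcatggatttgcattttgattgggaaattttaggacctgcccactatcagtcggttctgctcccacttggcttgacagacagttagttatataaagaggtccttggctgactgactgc
Such windows were found for 6 measured Sprr genes, *Sprr1a*, *Sprr2a2*, *Sprr2b*, *Sprr2d*, *Sprr2e* and *Sprr2f*. The AP-1 site was present in 5 of 6 windows and in 6.75% of all 32851 windows of that length. The octamer ATTTGCAT was present in 4 of 6, against 1.6% of all windows, and TATAAA in 5 of 6, against 12.4%. The full oestrogen response element, GGTCA and TGACC spaced by 3 bases, was in none of the 6 and in 0.0639% of all windows. Its core GGTCA, which is contained in it, was in the *Sprr2f* window only and in 35.2% of all windows. These letters were chosen after the sequences had been read. The windows of the Sprr2 genes may be related copies, which was not measured, so their sites need not be separate observations. *Sprr2e*, which was not called lower, carries the AP-1 site, the octamer and TATAAA as well.

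No other gene of the oestrogen-induced list was called. *Cftr*, the chloride channel of the epithelium, had a log2 ratio of -0.91, *Lcn2*, an iron-scavenging lipocalin, -0.69, and *Igf1*, a stromal growth factor, -0.44. *Ltf* (0.04), *C3* (-0.09), *Muc1* (-0.22) and *Greb1* (-0.13), all classical oestrogen targets, differed little. *Oxtr*, the oxytocin receptor, is outside that list and was called lower, by 1.27, from a level of 0.72 to -0.55. The receptors themselves were nearly level. Of 17 sex steroid receptors and coregulators none was changed 2-fold and the median was -0.01, with *Esr1* at -0.09, *Esr2* at 0.14 and *Pgr* at -0.20. The 1 probe of *Esr2* was bright in all 3 control tissues, at 3.17 in uterus, 3.45 in ovary and 3.51 in liver. Whether it reads *Esr2* alone was not tested. Among 15 genes regulated by progesterone, such as *Ihh* (0.12), *Hand2* (0.03) and *Bmp2* (0.47), none was changed 2-fold, and the median was 0.05.

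The composition markers of the uterus were close to level. The medians were 0.08 for 27 epithelial genes, 0.10 for 25 stromal genes, -0.10 for 22 smooth muscle genes and -0.07 for 16 endothelial genes. Their defining members were expressed on both arrays, among them the keratins *Krt8* (-0.13) and *Krt18* (0.13), the stromal *Hoxa10* (0.05) and the myosin *Myh11* (-0.09). *Oxtr* was the only gene of these 4 lists changed 2-fold. Within the lists, *Foxa2*, a factor of the glands, was at 0.60, *Lif*, the implantation cytokine, at -0.56 and *Tagln*, a smooth muscle actin-binding protein, at 0.62. Proliferation genes were not lower as a group. Of 39 measured, 29 were above 0, with a median of 0.09, *Mki67* at 0.32 and *Ccnd1* at -0.43. The exception was *Gins2*, a subunit of the replicative helicase, which was 2.74-fold lower, while its partner *Gins1* was at -0.26. Matrix genes tended to be lower, with 21 of 29 below 0 and a median of -0.11. Elastin (*Eln*) had the lowest ratio of them, -0.99, and *Tnc* the highest, 0.50. *Gapdh* was at -0.05 over 7 probes, which ranged from -0.33 to 0.10.

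**Figure D3:**
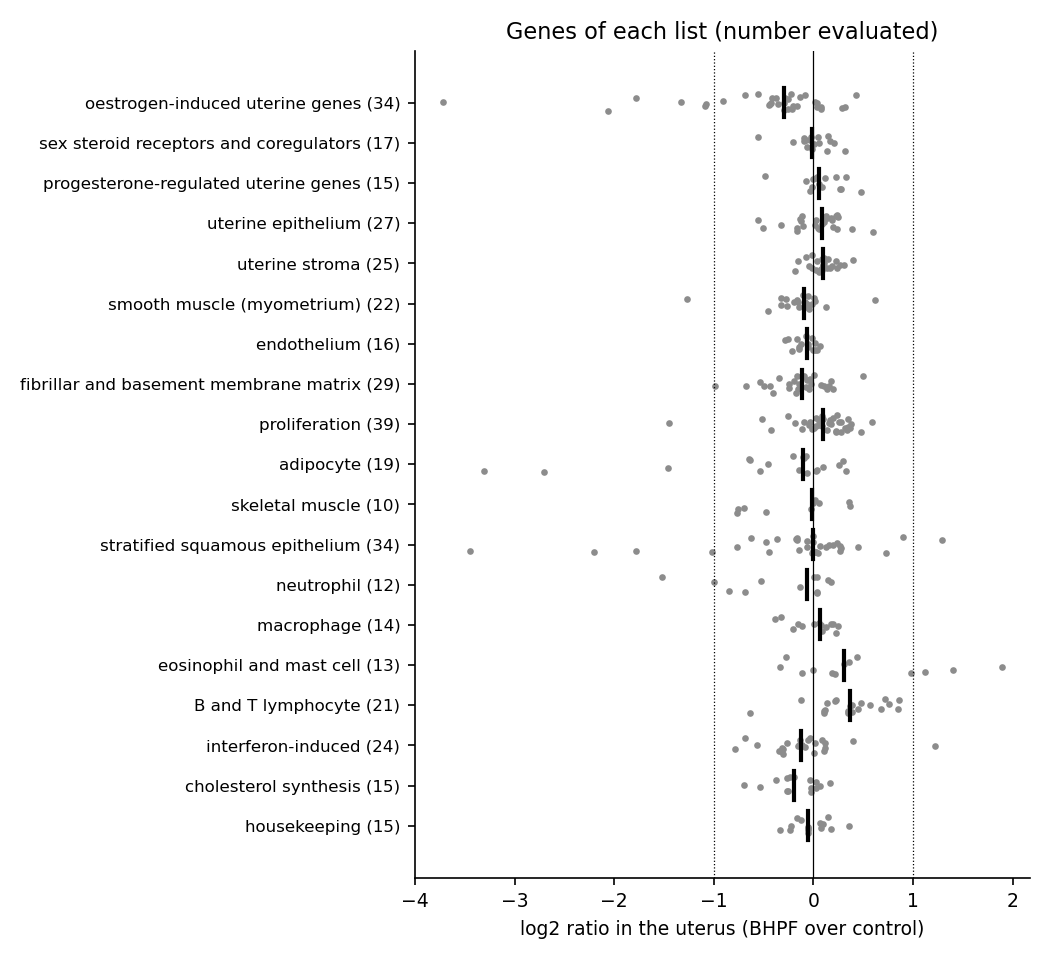
Log2 ratio of each measured gene in the uterus (x axis, BHPF over control), by list, with the number measured in brackets. Each point is a gene, the black bar the list median and dotted lines mark 2-fold. The oestrogen-induced list has a median of -0.29 and a tail of Sprr genes down to -3.72, and the lymphocyte and mast cell lists lie to the right.

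Some genes of the interleukin-1 family and of squamous epithelium were lower with BHPF. *Il1f6*, which encodes interleukin-36 alpha, went from -0.36 to -3.81, lower by 3.45. The decoy receptor *Il1r2* was lower by 1.04, while *Il1rl2*, the interleukin-36 receptor, was higher by 1.22. The cytokine and its receptor thus differed in opposite directions, the receptor at low levels from -4.93 to -3.71. *Serpinb5*, a serpin of squamous and glandular epithelia, was at least 4.59-fold lower, and *Sfn*, an epithelial 14-3-3 protein, lower by 1.02. The squamous list as a whole had no shift. Of its 34 measured genes 4 were called lower and 1, *Fgfbp1*, higher, against 0.782 and 0.698% of all genes. Its median was 0.00. The basal keratin *Krt14* was at 0.27, and *Krt5* had a bound of -0.06. *Fam3b*, a secreted epithelial cytokine, was 4.97-fold lower, and the matrix metalloproteinases *Mmp7* and *Mmp3* had ratios of -2.01 and -0.87.

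Chitinase-like genes were lower with BHPF in every member measured. They encode lectins without enzyme activity that macrophages, neutrophils and epithelia secrete. *Chil1* went from -0.54 to -3.69, *Chil3* from 0.30 to -2.42 and *Chil4* from -2.43 to -4.35. These 3 are all members of the family that were well above background in the uterus. All 3 were called lower, against 0.74% of retained probes. This family was chosen after its values were seen, and *Chil1* and *Chil3* are themselves among the largest falls measured on both arrays. Alarmins of neutrophils were lower along with the chitinase-like genes. *S100a8* went from 0.86 to -0.66, and *S100a9* from 1.60 to 0.59, which lies at the 2-fold limit and was just short of it under 3 other ways of scaling or background correction. *Cstdc5*, a stefin of myeloid cells, was 4.24-fold lower. The chemokine *Cxcl5*, a neutrophil attractant, was 2.34-fold lower. The rest of the neutrophil list was mixed. Of 12 genes measured, *S100a8* and *S100a9* were 2-fold lower, against 0.782% of all genes. *Camp* was at -0.85 and *Mpo* at -0.53, while the receptors *Csf3r* (0.03) and *Cxcr2* (0.17) differed little. The median was -0.07, and it was 0.07 for 14 macrophage genes, of which none was changed 2-fold. The 1 probe of *Csf3r* was bright in all 3 control tissues, at 3.83 in uterus, 3.47 in ovary and 4.28 in liver. Whether it reads *Csf3r* alone was not tested.

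Some genes of fat cells were lower with BHPF. *Adipoq*, the adipocyte hormone adiponectin, went from -1.21 to -4.52, and *Cfd*, the complement protease adipsin, from 0.22 to -2.49. *Fabp4*, a fatty acid carrier of fat cells and capillaries, went from 0.66 to -0.80. Of 19 adipocyte genes measured these 3 were called lower, against 0.782% of all genes. Of the 19, 13 were below 0, with a median of -0.11. The log2 of their summed levels was 5.04 in the control and 4.88 in the BHPF uterus. *Retn* (-0.64), *Lpl* (-0.65) and *Plin4* (-0.54) were lower by less than 2-fold, and *Pparg* was at -0.21. Fat lies along the uterine horns, and how much of it was dissected was not measured. Of 10 skeletal muscle genes *Casq1* (-0.77), *Tnnt3* (-0.76) and *Tnni2* (-0.70) had the lowest ratios and the median was -0.01. Of that list 4 genes were above 0, 5 were below 0 and none was called. The striated muscle genes that follow are outside the list and are named because they were called lower. *Myh7*, the slow myosin heavy chain, went from -1.29 to -3.90, the cardiac actin *Actc1* was lower by 1.23, and *Cav3*, the muscle caveolin, by at least 1.06. The part of adhering tissue in these differences was not tested.

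Granzymes were higher with BHPF. They are serine proteases in the granules of natural killer cells and cytotoxic T cells, and the uterine natural killer cells of mice carry several of them. *Gzmd* went from -3.53 in the control uterus to -0.02 with BHPF, a 11.4-fold difference. *Gzmg* went from -1.06 to 1.98, and *Gzmf* from -2.17 to 0.78. The 2 probes of *Gzme* went from 1.01 to 2.76 and from -0.42 to 1.98. *Gzmc* was 2.25-fold higher. Both uterus arrays showed all of these probes well above background. On the liver and ovary arrays, by contrast, the probes of *Gzmc*, *Gzmd*, *Gzmf* and *Gzmg* were not well above background in any group. *Gzma* (0.57) and *Gzmb* (0.39) were higher by less than 2-fold, as were *Gzmm* (0.30) and *Gzmk* (0.19). *Gzmn* was not well above background. All 11 measured probes of granzymes and perforin were above 0. Of them 6 were called higher, against 1.05% of retained probes. The family was looked at after its values were seen. These transcripts are similar, and a probe may bind several of them.

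The 250 bases before the starts of *Gzmd*, *Gzme*, *Gzmf* and *Gzmg* are shown because these genes lie in 1 cluster and were all called higher. They are RefSeq sequences of the minus strand of GRCm38.p6, at chr14:56132594-56132843, chr14:56120626-56120875, chr14:56211408-56211657 and chr14:56159580-56159829. Capitals mark the longest run that all 4 windows share.
Gzmd: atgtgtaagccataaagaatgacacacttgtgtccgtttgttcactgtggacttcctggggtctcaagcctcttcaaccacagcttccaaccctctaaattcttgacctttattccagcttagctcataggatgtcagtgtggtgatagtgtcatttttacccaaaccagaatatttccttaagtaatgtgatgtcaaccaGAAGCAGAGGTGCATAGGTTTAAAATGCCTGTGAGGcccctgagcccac
Gzme: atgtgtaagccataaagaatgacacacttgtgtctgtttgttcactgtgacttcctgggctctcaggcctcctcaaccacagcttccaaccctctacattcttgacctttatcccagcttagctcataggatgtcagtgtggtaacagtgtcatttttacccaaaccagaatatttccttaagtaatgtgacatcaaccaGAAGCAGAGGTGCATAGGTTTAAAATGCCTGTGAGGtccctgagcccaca
Gzmf: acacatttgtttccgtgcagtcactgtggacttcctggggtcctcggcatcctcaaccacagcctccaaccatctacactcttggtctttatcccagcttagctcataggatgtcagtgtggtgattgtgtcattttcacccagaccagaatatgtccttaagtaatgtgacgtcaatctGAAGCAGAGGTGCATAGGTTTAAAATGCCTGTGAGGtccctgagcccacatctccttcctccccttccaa
Gzmg: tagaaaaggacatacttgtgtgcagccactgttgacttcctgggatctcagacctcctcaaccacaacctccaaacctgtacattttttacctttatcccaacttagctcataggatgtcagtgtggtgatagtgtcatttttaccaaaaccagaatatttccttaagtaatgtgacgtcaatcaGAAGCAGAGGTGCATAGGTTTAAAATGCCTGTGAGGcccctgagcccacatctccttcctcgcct
The run is 36 bases long and was found in 4 of 32851 windows, those of the 4 genes themselves. Its first 20 bases also occur in the window of *Gzmc*, which was also called higher. The windows of these genes are near copies. Of the 100 bases of *Gzmd* that lie beyond the 60 nearest to its start, 96 were identical in *Gzme*, 92 in *Gzmg*, 90 in *Gzmf* and 66 in *Gzmc*, at the best ungapped shift of up to 60 bases. In *Gzmb* and *Gzmn*, of the same cluster, 35 and 38 bases were identical.

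Receptors and factors of natural killer cells did not follow the granzymes. Perforin (*Prf1*), which opens the target membrane, went from 0.91 to 1.02. The activating receptor *Ncr1* had a ratio of 0.10, the transcription factor *Tbx21* 0.13, the cytokine *Il15* 0.05 and the shared receptor chain *Il2rb* 0.42. Over 38 measured probes of 27 such genes, 28 were above 0, none was called higher and the median was 0.15. *Klra5*, a receptor of the Ly49 family, was lower on both its probes, on the log2 scale, with ratios of -1.15 and -0.90. Most lymphocyte genes were slightly higher. Of 21 measured, 19 were above 0 with a median of 0.36, and none was changed 2-fold. Of all genes 48.8% were above 0. *Blk* and *Cd27*, measured with BHPF only, could not be below 0. The T cell receptor chains *Cd3d* (0.86), *Cd3e* (0.68) and *Cd3g* (0.45) were among the higher ones, and *Cd4* (0.22) and *Cd8a* (0.21) differed less. The B cell gene *Ms4a1* had a bound of -0.64.

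Several mast cell genes were higher with BHPF. *Ctsg*, a granule protease of mast cells and neutrophils, went from -4.10 to -0.78, a 9.97-fold difference, and was added to the family after its value was seen. The mast cell carboxypeptidase *Cpa3* went from -3.08 to -1.68 and the chymase *Mcpt4* from -1.92 to -0.79. *Mcpt4* was 0.96 on the log2 scale with another background correction, under 2-fold. *Cma1*, another chymase, was at 0.98, and *Tpsb2*, a tryptase, at 0.60 and 0.28 on its 2 probes. *Fcer1a*, a chain of the IgE receptor, was well above background with BHPF only and at least 3.71-fold higher. *Hdc* (0.19), which makes histamine, and *Kit* (0.21), the receptor for stem cell factor, differed less. All 10 measured probes of mast cell genes were above 0 and 4 of them were called higher, against 1.05% of retained probes. Of these 4, *Ctsg* was added for its value, and *Fcer1a*, measured with BHPF only, could not be below 0. The genes *Ms4a2*, *Mcpt1* and *Mcpt2* were not well above background. Eosinophil genes of the list were mixed and none was called, with *Ear1* at -0.33, *Ear2* at -0.28, *Epx* at a bound of 0.00, *Alox15* at 0.30 and *Il5ra* at 0.35.

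**Figure D4:**
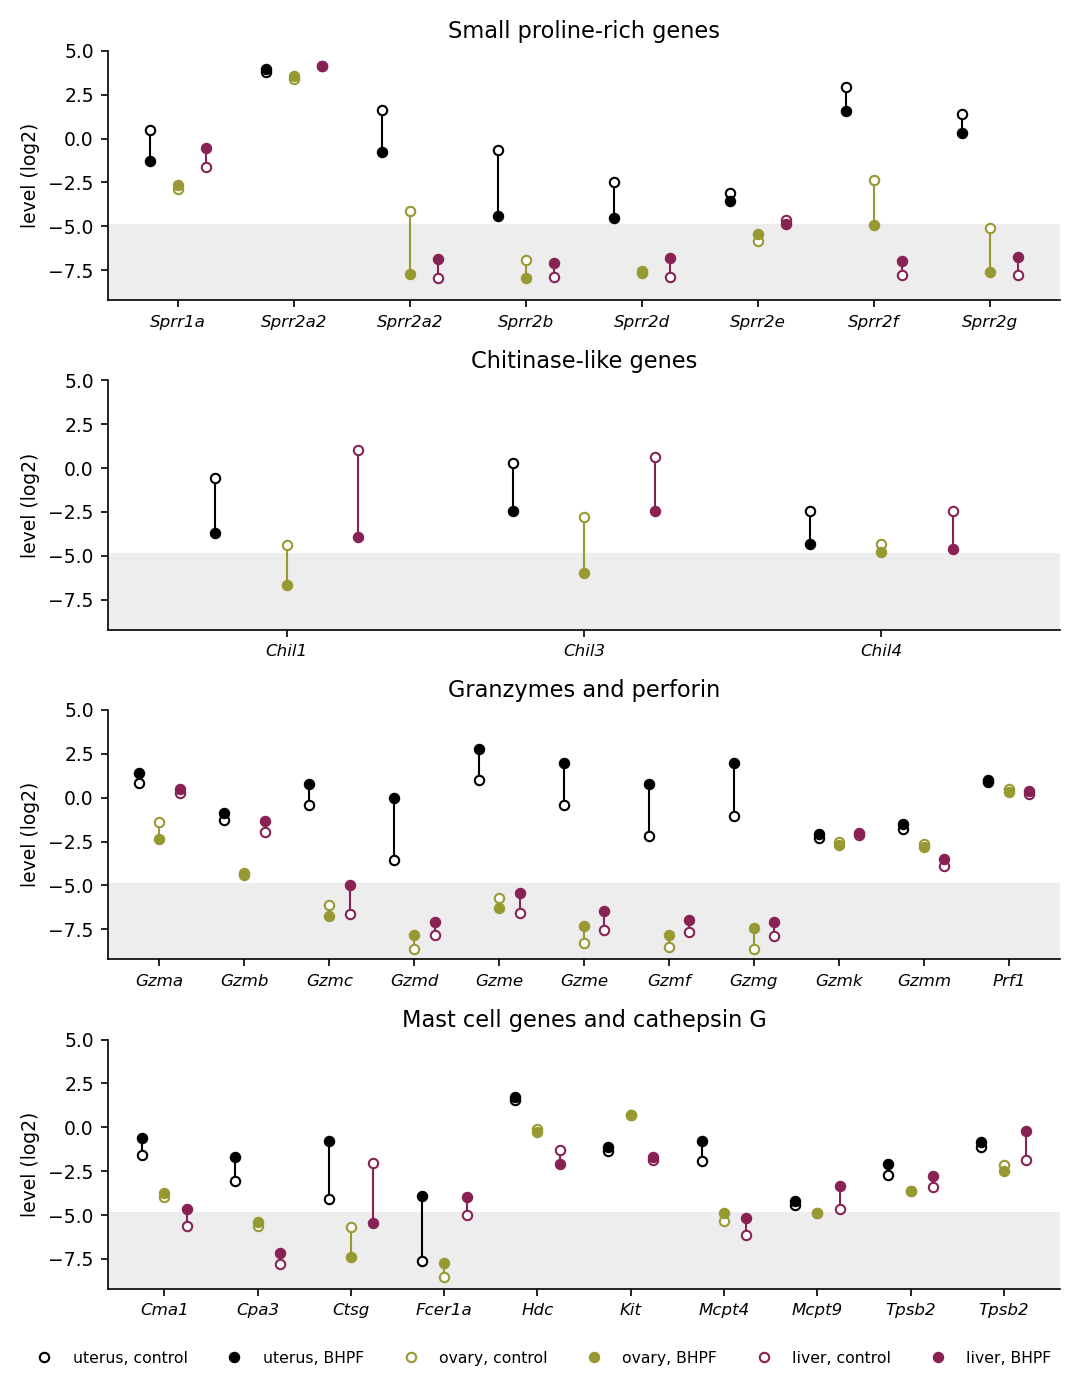
Levels (y axis, log2 intensity minus the 75th percentile) of 4 gene families on the 6 arrays, 1 position per probe, with open circles for control and filled circles for BHPF, joined by a line. Grey marks levels below the highest of the 6 background limits. The uterus lines point down for the Sprr and chitinase-like probes, except 1 Sprr2a2 probe, and up for all granzyme and mast cell probes.

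Beyond these families, some genes with a known role in the uterus differed. *Cxcl10*, an interferon-induced attractant of T cells, went from -1.78 to -0.56, the only one of 24 interferon-induced genes changed 2-fold. The median of that list was -0.12, with *Oas2* at -0.79 and *Irf7* at -0.69. *Il20ra*, a receptor chain for interleukins of the interleukin-10 family, was 4.85-fold higher at low levels. *Cyp26b1*, which degrades retinoic acid, was just under 2-fold higher, and *Crabp2*, which delivers retinoic acid to its receptor, at -0.94. *Prlr*, the prolactin receptor, was lower by 1.04, *Cfb*, a complement factor made by the epithelium, by 1.08 and *Tff2*, a trefoil peptide, by 1.14. *Pla2g2e*, a secreted phospholipase, was lower by 1.85 over 2 probes. *Adamts4*, a protease of proteoglycans, was 2.29-fold lower, and *Itga2*, the collagen-binding integrin alpha 2, 5.15-fold. *Lefty1*, an inhibitor of nodal signalling, was higher by 1.07.

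The other genes with the largest differences on both arrays belong to no list used here. Among the falls, *Parp11* went from -0.97 to -4.34, and *Krt84*, a hair keratin, from -1.33 to -3.95. *Ttc34* and *Prdm12* were lower by 2.05 and 2.02. Among the rises, *Pebp1* went from 0.99 to 2.59 as the mean of 2 probes that disagreed. The remaining large rises were at low levels. They were Olfr1428 (2.38), *Rhox4g* (2.37), *Carmil1* (2.20), *Tmsb15a* (2.12), *Cryba2* (1.80), *Ifna14* (1.67), *Zar1* (1.67) and *Ccdc177* (1.57), each measured by 1 probe.

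Many of the higher genes were dim. Of the 108 genes, 48 were well above background on both arrays, and of the 121 lower genes 79 were. The higher genes with the largest bounds were *Prss50*, at least 9.84-fold, and *Cacng4*, at least 7.53-fold. The lower ones were *Fibcd1*, at least 11.9-fold, and *Phex*, at least 10.9-fold. Probes that were well above background on neither uterus array read 0.58 higher with BHPF at the median, so dim probes were not on the same footing on both arrays. Of 208 measured genes for olfactory, vomeronasal and trace amine receptors, 15 were called higher and 6 lower, against 0.698 and 0.782% of all genes. Above the 75th percentile of the array on either side were 5 of the higher genes and 20 of the lower. Most calls also rested on 1 probe, for 99 of the higher and 110 of the lower genes. Where the gene of a higher probe had other measured probes, their mean ratio was also 2-fold higher in 5 of 37 cases. For lower probes the mean of the others was also 2-fold lower in 5 of 42. The sign of that mean was the same in 17 of 37 and 32 of 42 cases. All probes of *Gzme*, *Pld5*, *Pla2g2e* and *Sirpb1a* were past 2-fold in 1 direction, whereas the probes of *Pebp1* were at 0.49 and 2.71.

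The same probes were then read on the other tissues, each against its own control array. Of 202 lower uterus probes that were measured in the ovary, 22 were called lower there too, against 0.543% of all retained probes, and 8 were called higher, against 0.392%. Of 256 higher probes, 18 were called higher in the ovary and 10 lower. In the liver, 71 of 168 higher uterus probes were called higher, against 4.98% of all retained probes. Of 139 lower probes, 22 were called lower in the liver, against 0.9%, and 13 higher. The members were chosen by the control liver array, which enters these liver ratios as well. Among probes well above background on all 4 uterus and liver arrays, 27 of 85 higher uterus probes were called higher in the liver and 3 lower. Of 93 lower uterus probes, 18 were called lower in the liver and 7 higher. Over all retained probes so restricted, 3.67% were called higher in the liver and 0.717% lower.

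The genes called lower in both uterus and ovary were *Chil1*, *Chil3*, *Clec4d*, *Cstdc5*, Gm14548, *Lilra6*, *Mmp7*, *S100a8*, *S100a9*, *Sirpb1a*, *Sirpb1c* and *Sprr2f*. *S100a8* had log2 ratios of -1.52 in the uterus, -3.13 in the ovary and -2.73 in the liver. *Chil3* had -2.72, -2.97 by a bound and -3.09. *Sirpb1a*, an immunoglobulin-like receptor of myeloid cells, had -1.25, -1.54 and -1.42. For these genes the uterus differed in the same direction as both other tissues. *Sprr2f* and *Mmp7* were lower in uterus and ovary, and in the liver *Sprr2f* was not well above background and *Mmp7* had a bound of 0.00. *Ctsg* was higher in the uterus and lower in the liver, with a ratio of -2.88 by a bound, and in the ovary it had a bound of -0.08. *Il20ra* was higher in the ovary as well, by 2.19 or more on the log2 scale, and *Dnah8*, an axonemal dynein, by 1.15.

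**Figure D5:**
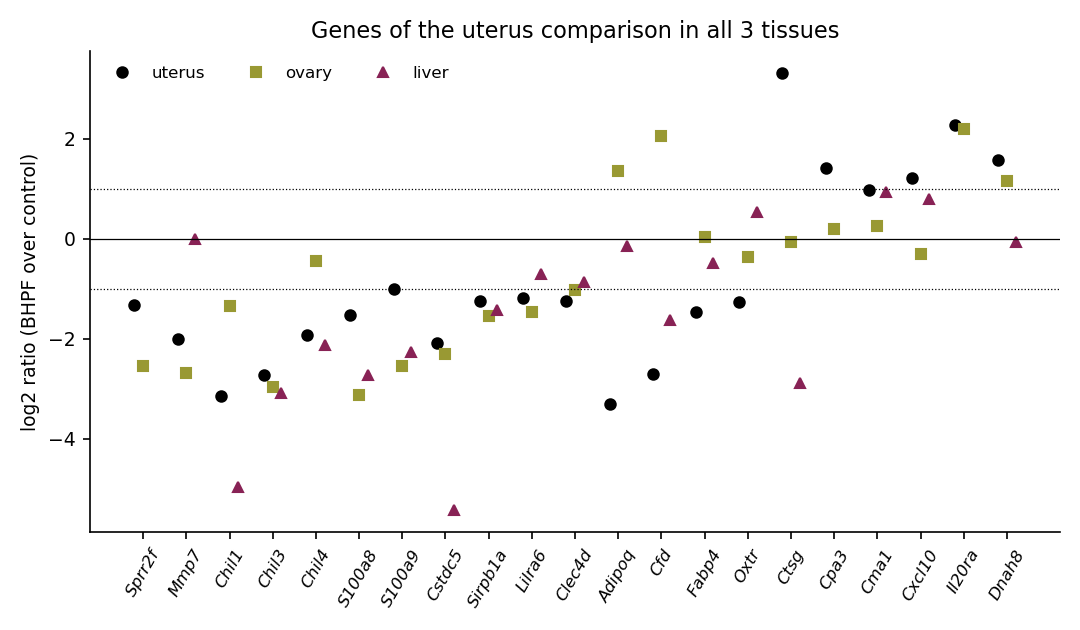
Log2 ratio (y axis, BHPF over control) of genes of the uterus comparison on the uterus, ovary and liver arrays, with bounds drawn at their value and genes not measured in a tissue left blank. Dotted lines mark 2-fold. S100a8, S100a9, Cstdc5, Sirpb1a, Lilra6, Clec4d and the chitinase-like genes lie below 0 in all tissues, while Adipoq and Cfd lie below 0 in the uterus and above 0 in the ovary.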

How the data were processed

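The authors scanned 1 slide and extracted it with Agilent Feature Extraction (version 9.1 per the labels, 11.5.1.1 per the file headers). They deposited an intensity for each spot on a linear scale, background-subtracted and not normalized between arrays. The log2 values of a second table deposited by the authors served only to compare its columns with the scanner files.

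After removal of control and outlier spots, repeated spots were averaged per probe as log2 intensity, and each array was scaled by subtracting its 75th percentile. Dim sides were set to the lowest intensity well above background on that array, or to the probe's own where higher. A probe or gene was called changed at 2-fold. Symbols came from accessions matched to RefSeq (GRCm38.p6) for 26762 of 55681 probes. Genes could be named from fixed ranks: the 15 largest rises and falls measured on both arrays, the 8 largest by bound, of which only the leading ones are named, and, in each of 34 lists, the brightest, the extremes and any changed 2-fold. Others, including the family members, were chosen after their values were seen. The members and lists were chosen with earlier results of these data known. Alternatives covered scaling, limma 3.58.1 normexp with an offset of 50, bounds, filters, the liver limit, the threshold, and the probe used. Scripts were tested on simulated data. Python 3.11.15, pandas 2.3.3 and R 4.3.3 were used.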

Additional observations from a re-analysis of the deposited data

Results flagged for a closer look

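*Adipoq* and *Cfd*, both genes of fat cells, differed in opposite directions in uterus and ovary. In the uterus the log2 ratios were -3.31 for *Adipoq* and -2.71 for *Cfd*, and in the ovary they were 1.35 and 2.05. Both genes were well above background on all 4 arrays. In the liver *Adipoq* was at -0.15 and *Cfd* at -1.63. With 1 pool for each group the difference between the tissues was not tested, and the amount of fat in each pool was not measured.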

How the results depend on the processing

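With 1 array per group, no replicate could be left out. No paired analysis was possible because each group has 1 array. The number of probes 2-fold higher was 729 with the liver probes kept, which made 70.8% of changed probes higher. Requiring both uterus arrays well above background gave 177 higher and 157 lower (53.0% higher), and no filter on dim probes 1491 and 907. Own values in place of bounds gave 541 lower, and 43.4% higher. With normexp 184 were lower (62.5% higher). Scaling to the 50th percentile or quantile normalization gave 51.2% higher in either case. Gene symbols in place of probes gave 108 higher and 121 lower (47.2% higher), and a 4-fold threshold 82 and 59. Subtracting the liver share or moving the liver limit between 2-fold and 64-fold left both counts within 1.5 times the values given. For *Sprr2a2* the brightest probe alone gave 0.22 in place of -1.08, from a probe that is bright in all 3 tissues. Up to 68 called genes were followed through the settings, which are not all the called genes named in the report. Of those followed and named, *S100a9*, *Il1r2*, *Mcpt4*, *Prdm12*, *Sprr2a2* and *Pebp1* fell under 2-fold in at least 1 setting. *Klra5* was not followed, and its brighter probe alone was under 2-fold, at -0.90. Medians changed sign for up to 5 lists in 1 setting, the 50th percentile, and for 4 with normexp, none of them over 0.1 in size. Intensity over background limits the dim probes, and the causes of these shifts were not tested.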

Other observations

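Gene groups not described so far were mostly near level in the uterus. Of 15 measured genes of cholesterol synthesis that the liver rule had retained, 11 had a log2 ratio below 0. Their median was -0.19, and *Mvd*, the mevalonate decarboxylase, was lowest at -0.70. Of 31 genes of Wnt and Hedgehog signalling 22 were above 0, with a median of 0.10, *Wif1*, a Wnt inhibitor, highest at 0.51 and *Hhip*, a Hedgehog antagonist, at -0.68. For 22 immediate early genes the median was 0.01, with *Fos* at -0.44 and *Egr2* at 0.72. Among 19 clock genes, with a median of 0.07, *Bhlhe40* was at -0.43 and *Hlf* at 0.50. The 10 genes of the IGF system had a median of 0.03. Of 17 targets of the aryl hydrocarbon receptor and NRF2, *Cyp1a1* was at 0.48 and *Cyp1b1* at -0.66, and the median was 0.08. Haemoglobin genes were not uniform, with *Hbb-bs* at 0.58 and *Hba-a2* at -0.20.

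Among 8 pancreatic and intestinal genes measured, *Cela1*, an elastase, was lower by 1.46 and *Cpb1*, a carboxypeptidase, was at 0.74. Of 7 urothelial genes 6 were above 0, with a median of 0.38 and *Krt20* highest at 0.98. Of 9 mesothelial genes 6 were above 0, with a median of 0.24, *Upk1b* at 0.56 and *Msln* at 0.24. *Gdf9*, an oocyte growth factor, was at 0.87 and *Zp3*, of the egg coat, lower by at least 0.51. Whether bladder, mesothelium or ovary adhered to the dissected uteri was not tested.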
